A study of Mus musculus with 6 samples.

Results

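The sterol regulatory element binding proteins (SREBPs) and the genes that process them at the endoplasmic reticulum (ER) were followed in mouse liver. The set held 10 genes, chosen by gene name for their place in this pathway, out of 56534 genes or loci in the deposited table. Each of the 10 names matched 1 row. Livers came from C57BL/6 mice whose hepatocytes were deleted for CD36, a fatty acid transporter at the cell surface (LKO, genotype labelled CD36-/-, 3 libraries), and from wild-type mice (CON, 3 libraries). Mice of both groups were on a high-fat diet, with 60% of the calories as fat, for 16 weeks. No source used here gives the Cre driver, the sex, the age or any pooling of animals. Whether each library stands for its own animal is likewise unstated, and the p-values therefore describe library-to-library spread, some of which could be technical.

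SREBPs are made as membrane proteins of the ER. When sterols are low, the escort protein SCAP carries them in COPII-coated vesicles to the Golgi, where a pair of proteases release the part that enters the nucleus and drives genes of fatty acid and cholesterol synthesis. When sterols are high, the INSIG proteins hold SCAP and its cargo in the ER. In the liver, SREBP-1c acts mainly on fatty acid synthesis and responds to insulin, and SREBP-2 acts mainly on cholesterol synthesis and uptake. Srebf1, Srebf2 and Insig1 are themselves targets of SREBPs, while Insig2 has a liver transcript that insulin lowers.

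RefSeq (build GRCm38.p6) listed 15 transcription starts for the 10 genes, 3 of them for Srebf1, 3 for Insig2 and 2 for Scap. The deposited values are per gene, so they cannot be assigned to a start, and SREBP-1a and SREBP-1c cannot be told apart. The 250 bases before each start were searched on both strands for TCACNCCA, the core of the sterol regulatory element, and for the E-box CACGTG. Boxes that bind cofactors of SREBPs (CCAAT and GGGCGG) were searched likewise, and no match overlapped one of another motif in the windows shown. The promoters of Srebf2, of Insig1 and of Sec24d are shown, because Srebf2 and Insig1 varied closely together over the libraries and Sec24d was the member that lay higher in LKO. Capitals mark the sterol regulatory element core or the E-box, each sequence runs 5′ to 3′ on the strand of its gene, and the last base is the one before the start.
Srebf2, chr15:82147019-82147268, plus strand: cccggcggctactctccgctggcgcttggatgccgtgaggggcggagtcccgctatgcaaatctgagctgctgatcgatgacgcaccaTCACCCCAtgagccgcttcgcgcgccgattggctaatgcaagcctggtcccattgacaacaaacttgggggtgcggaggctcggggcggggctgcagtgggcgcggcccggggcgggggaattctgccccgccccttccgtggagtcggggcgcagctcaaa
Insig1, chr5:28071162-28071411, plus strand: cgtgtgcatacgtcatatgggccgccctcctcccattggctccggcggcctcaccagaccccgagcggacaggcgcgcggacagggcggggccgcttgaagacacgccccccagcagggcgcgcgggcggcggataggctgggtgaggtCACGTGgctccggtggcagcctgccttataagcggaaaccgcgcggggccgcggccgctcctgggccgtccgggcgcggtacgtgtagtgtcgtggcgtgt
Sec24d, chr3:123267246-123267495, plus strand: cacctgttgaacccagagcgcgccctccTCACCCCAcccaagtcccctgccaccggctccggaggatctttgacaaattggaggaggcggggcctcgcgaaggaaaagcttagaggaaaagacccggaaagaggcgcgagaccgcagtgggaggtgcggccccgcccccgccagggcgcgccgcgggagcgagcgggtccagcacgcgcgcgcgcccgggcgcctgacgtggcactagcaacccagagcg
The core was present before the starts of Srebf2, Sec24d and Sar1b, and in 3.67% of 32851 windows of this length in the table. The E-box was present before the start of Insig1 and before 1 of the 2 starts of Scap, and in 6.02% of windows. Neither the core nor the E-box was present before any of the 3 starts of Srebf1. That gene, whose windows are not shown, also varied closely with Srebf2 and Insig1 (Pearson's r of 0.961 and 0.962). CCAAT lay in 33.8% and GGGCGG in 32.7% of all windows. CCAAT (or its reverse complement) and GGGCGG lay in the window of Srebf2, where GGGCGG or its reverse complement occurred 4 times, in that of Insig1, where it occurred 3 times, and in that of Sec24d, where it occurred 1 time. A match is a description of the letters and not a measured binding site.

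The values are FPKM, fragment counts corrected for gene length and for library size, which are per length and allow levels of different genes to be compared. LKO was set against CON by limma on log2(FPKM + 1) over the 11104 genes with a mean of at least 1 FPKM, with p-values adjusted over all of them (Benjamini-Hochberg) and a threshold of 0.05. All 10 members passed the filter on low values. Cd36 was at 2.73, 3.70 and 10.22 FPKM in LKO 1 to 3, against 61.95, 26.49 and 19.66 FPKM in CON 1 to 3, a log2 fold change of -2.50 (SE 0.51, adjusted p = 0.163 by limma) and of -2.24 after median-ratio scaling. The targeted gene was thus lower in every LKO library, and nearest to the CON range in LKO 3. Depth in reads is unknown, and a library held 10614 to 11311 genes at 1 FPKM or more. Hepatocyte markers summed to 44137 to 53530 FPKM in LKO and 48837 to 68984 FPKM in CON, with none of the 8 at 0. In bulk liver, fewer cells of a type and less RNA per cell cannot be told apart.

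The libraries differed in scale and in a trend with gene length. The median log2 fold change of all tested genes was -0.23 on the deposited scale and 0.02 once libraries were scaled by the median ratio of their genes. Log2 fold changes of single genes are therefore also given on that second scale. The deviation of a library from the mean of all 6 ran with gene length at a Spearman rho of -0.33, -0.30 and 0.21 in LKO 1, LKO 2 and LKO 3, against 0.27, 0.10 and 0.29 in CON 1, CON 2 and CON 3. LKO 3 thus stood on the CON side of this trend. The members were 1201 to 6789 bases long.

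At an adjusted p under 0.05, 0 of the 10 members passed by limma, against 1 of 11104 genes lower (0.00901%, the gene Gm44002, named after its values were seen) and 0 higher (0%). Of the 10, 9 had a negative log2 fold change, with a median of -0.55. The median of all genes was itself -0.23 on this scale, and 8 of the 10 lay below it. The groups did not overlap in 6 members with LKO lower, where 24.3% of all genes did so, and in 1 member with LKO higher, Sec24d, where 3.92% did so. At an unadjusted p under 0.05, 5 members were lower, against 18.9% of all genes, and 0 higher, against 3.25%. After median-ratio scaling the median of the 10 was -0.28, with 7 negative and 3 positive. The groups then did not overlap for 1 member in the lower direction, Scap (11.1% of all genes), and for 1 in the higher, Sec24d (12.4%). At an unadjusted p under 0.05, 2 were lower (7.91% of genes) and 1 higher (10.3% of genes) on that scale. The count of 6 on the deposited scale was thus not found after scaling.

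**Figure D1:**
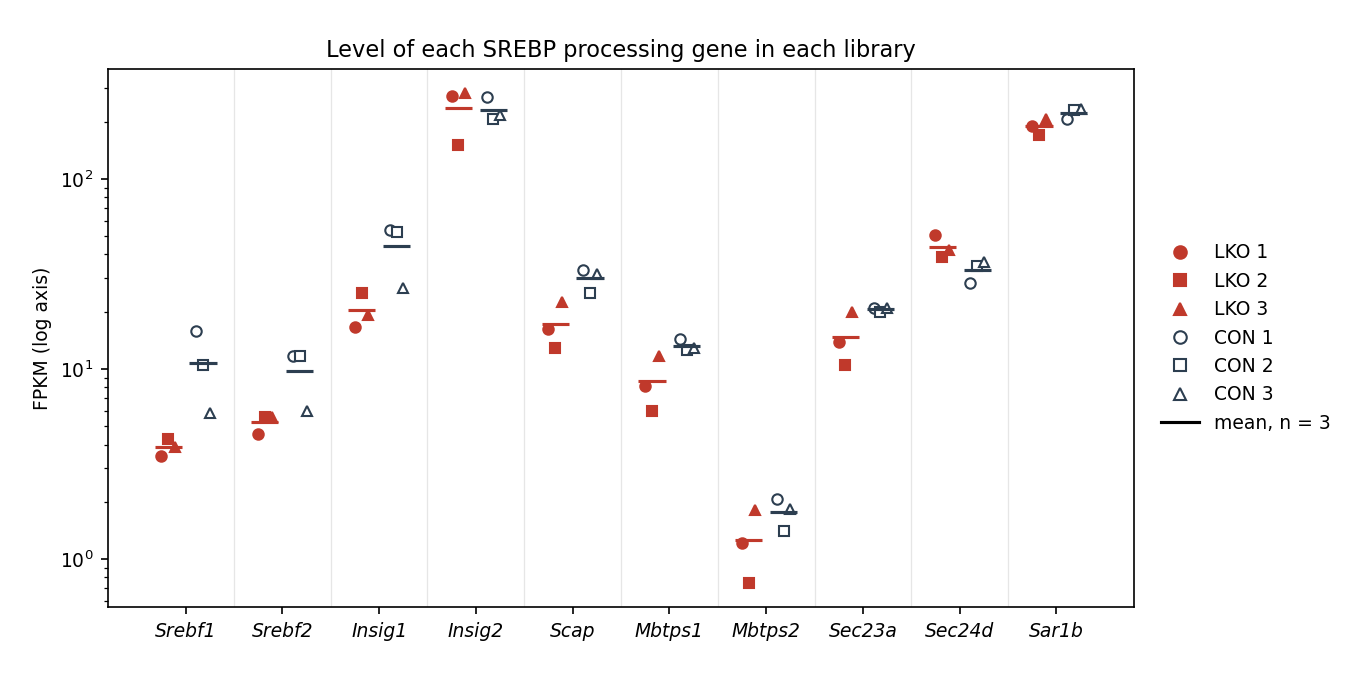
Level of each of the 10 genes in each library, in FPKM on a log axis, with LKO libraries as filled red symbols and CON libraries as open symbols (circle, square and triangle for libraries 1, 2 and 3), and the mean of 3 libraries as a line. Srebf1, Srebf2 and Insig1 lie lower in LKO with CON 3 nearest to it, and Insig2 and Sar1b are the most abundant at 150 to 281 FPKM.

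The members spanned 1.26 to 235 FPKM in mean level in LKO and 1.78 to 231 FPKM in CON. In LKO the order was Insig2 (235 ± 73.3 FPKM), Sar1b (189 ± 18.9), Sec24d (43.7 ± 5.97), Insig1 (20.3 ± 4.38), Scap (17.2 ± 4.93), Sec23a (14.7 ± 4.75), Mbtps1 (8.63 ± 2.88), Srebf2 (5.24 ± 0.62), Srebf1 (3.87 ± 0.39) and Mbtps2 (1.26 ± 0.53, SD, n = 3 each). In LKO the ranges of Insig2 and Sar1b overlapped, as did those of Insig1 and Scap, of Scap and Sec23a and of Sec23a and Mbtps1, while other neighbours in this order did not. In CON the order was Insig2, Sar1b, Insig1, Sec24d, Scap, Sec23a, Mbtps1, Srebf1, Srebf2 and Mbtps2. In CON the ranges overlapped for Insig2 with Sar1b, Insig1 with Sec24d, Sec24d with Scap, Mbtps1 with Srebf1 and Srebf1 with Srebf2. Srebf1 and Srebf2 changed places between these orders, as did Insig1 and Sec24d.

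Srebf1 (ENSMUSG00000020538) encodes SREBP-1a and SREBP-1c, the activators of fatty acid synthesis genes. It was at 3.49, 4.26 and 3.87 FPKM in LKO 1 to 3, against 15.91, 10.52 and 5.83 FPKM in CON 1 to 3. The LKO libraries lay close together and all below CON, whose libraries spread 2.73-fold. The means were 3.87 ± 0.39 FPKM in LKO and 10.8 ± 5.04 FPKM in CON (SD, n = 3 each). The log2 fold change was -1.18 (SE 0.32, 95% interval -1.91 to -0.44, adjusted p = 0.176 by limma). On the median-ratio scale it was -0.92 (unadjusted p = 0.0228, adjusted p = 0.258 by limma), and CON 3 then lay at 5.21 scaled FPKM, below LKO 2 at 5.36.

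Srebf2 (ENSMUSG00000022463) encodes SREBP-2, the activator of cholesterol synthesis genes. It was at 4.53, 5.60 and 5.60 FPKM in LKO 1 to 3, against 11.68, 11.63 and 5.99 FPKM in CON 1 to 3. CON 1 and CON 2 were alike, and CON 3, at a level 1.95-fold below CON 1, sat just above the LKO range. The means were 5.24 ± 0.62 FPKM in LKO and 9.77 ± 3.27 FPKM in CON (SD, n = 3 each), with a log2 fold change of -0.74 (SE 0.26, adjusted p = 0.196 by limma). On the median-ratio scale it was -0.48 with a 95% interval of -1.12 to 0.16, and the groups overlapped.

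The sum of both SREBP genes was 8.02, 9.86 and 9.47 FPKM in LKO 1 to 3 and 27.59, 22.15 and 11.82 FPKM in CON 1 to 3. Srebf1 made up 43.5%, 43.2% and 40.9% of that sum in LKO 1 to 3, against 57.7%, 47.5% and 49.3% in CON 1 to 3. Every LKO share was below every CON share. This is the same comparison as the Srebf1 over Srebf2 ratio given below and no separate result. Of all pairs of tested genes, 23.4% had a ratio whose groups did not overlap.

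Insig1 (ENSMUSG00000045294) encodes the retention protein whose gene is an SREBP target. It was at 16.69, 25.19 and 19.13 FPKM in LKO 1 to 3, against 54.01, 52.80 and 26.77 FPKM in CON 1 to 3. All LKO libraries lay below CON, with LKO 2 just under CON 3. The means were 20.3 ± 4.38 FPKM in LKO and 44.5 ± 15.4 FPKM in CON (SD, n = 3 each), with a log2 fold change of -1.05 (SE 0.30, 95% interval -1.74 to -0.35, adjusted p = 0.179 by limma). On the median-ratio scale it was -0.76 (unadjusted p = 0.0602 by limma), and LKO 2 at 31.7 scaled FPKM lay above CON 3 at 23.9.

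Insig2 (ENSMUSG00000003721) encodes the second retention protein, whose gene is not induced by SREBPs. It was the most abundant member, at 272.51, 150.30 and 281.40 FPKM in LKO 1 to 3, against 270.04, 205.69 and 216.65 FPKM in CON 1 to 3. LKO 2 was the lowest and LKO 3 the highest of the 6, so the groups overlapped. The means were 235 ± 73.3 FPKM in LKO and 231 ± 34.4 FPKM in CON (SD, n = 3 each). The log2 fold change was -0.02 with a 95% interval of -0.66 to 0.62 (adjusted p = 0.968 by limma), which leaves room for a difference in either direction. It was 0.28 on the median-ratio scale (95% interval -0.24 to 0.79).

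Scap (ENSMUSG00000032485) encodes the escort that carries SREBPs out of the ER. It was at 16.17, 12.93 and 22.62 FPKM in LKO 1 to 3, against 33.13, 25.23 and 31.67 FPKM in CON 1 to 3. Each LKO library lay below each CON library, LKO 3 closest to CON. The means were 17.2 ± 4.93 FPKM in LKO and 30.0 ± 4.20 FPKM in CON (SD, n = 3 each), with a log2 fold change of -0.79 (SE 0.23, adjusted p = 0.179 by limma). Scap was the only member in the lower direction whose groups stayed apart after median-ratio scaling, at 17.5, 16.3 and 22.6 scaled FPKM in LKO 1 to 3 and 27.9, 24.4 and 28.3 in CON 1 to 3. Its log2 fold change was then -0.50 (unadjusted p = 0.0192, adjusted p = 0.258 by limma).

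The proteases that free the nuclear part of an SREBP are encoded by Mbtps1 (site-1 protease, ENSMUSG00000031835) and Mbtps2 (site-2 protease, ENSMUSG00000046873). Mbtps1 was at 8.14, 6.03 and 11.72 FPKM in LKO 1 to 3, against 14.32, 12.55 and 12.86 FPKM in CON 1 to 3, a log2 fold change of -0.61 (SE 0.24, adjusted p = 0.209 by limma). On the median-ratio scale it was -0.33 (95% interval -0.75 to 0.08) and the groups overlapped, and without LKO 2 it was -0.40 on the deposited scale. Its CON libraries were within 1.14-fold of each other and its LKO libraries within 1.94-fold, with LKO 3 near CON. Mbtps2, the member at the lowest level, was at 1.22, 0.75 and 1.81 FPKM in LKO 1 to 3 and 2.08, 1.41 and 1.84 FPKM in CON 1 to 3, and the groups overlapped. Its log2 fold change was -0.32 (adjusted p = 0.396 by limma), -0.15 after median-ratio scaling and, on the deposited scale, -0.15 without LKO 2 and -0.49 without LKO 3. With the length trend removed the values were -0.24 for Mbtps1 and 0.02 for Mbtps2, whose genes are among the 3 longest of the set at 6789 and 4797 bases.

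Sec23a (ENSMUSG00000020986) and Sec24d (ENSMUSG00000039234) encode inner coat proteins of COPII vesicles, and Sar1b (ENSMUSG00000020386) the small GTPase that starts coat assembly. Sec23a was at 13.78, 10.55 and 19.91 FPKM in LKO 1 to 3, against 20.92, 19.98 and 21.00 FPKM in CON 1 to 3. The CON libraries agreed within 1.05-fold, LKO 1 and LKO 2 were lower, and LKO 3 was just below the CON range (log2 fold change -0.50, SE 0.23, adjusted p = 0.243 by limma). After median-ratio scaling the log2 fold change of Sec23a was -0.22, with LKO 3 at 19.9 scaled FPKM, above the CON range of 17.6 to 19.4. It was -0.19 with the length trend removed and, on the deposited scale, -0.30 without LKO 2. Sec24d was at 50.36, 38.79 and 41.99 FPKM in LKO 1 to 3, against 28.31, 34.90 and 36.50 FPKM in CON 1 to 3. It was the member with every LKO library above every CON library, on the deposited and on the median-ratio scale. Its log2 fold change was 0.38 (SE 0.18, adjusted p = 0.250 by limma), and 0.68 after median-ratio scaling (95% interval 0.23 to 1.12, unadjusted p = 0.00884, adjusted p = 0.258). Sar1b was at 189.48, 169.25 and 207.12 FPKM in LKO 1 to 3, against 206.00, 230.22 and 231.80 FPKM in CON 1 to 3, with overlap of LKO 3 and CON 1. Its log2 fold change of -0.24 (adjusted p = 0.391 by limma) was 0.06 after median-ratio scaling.

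**Figure D2:**
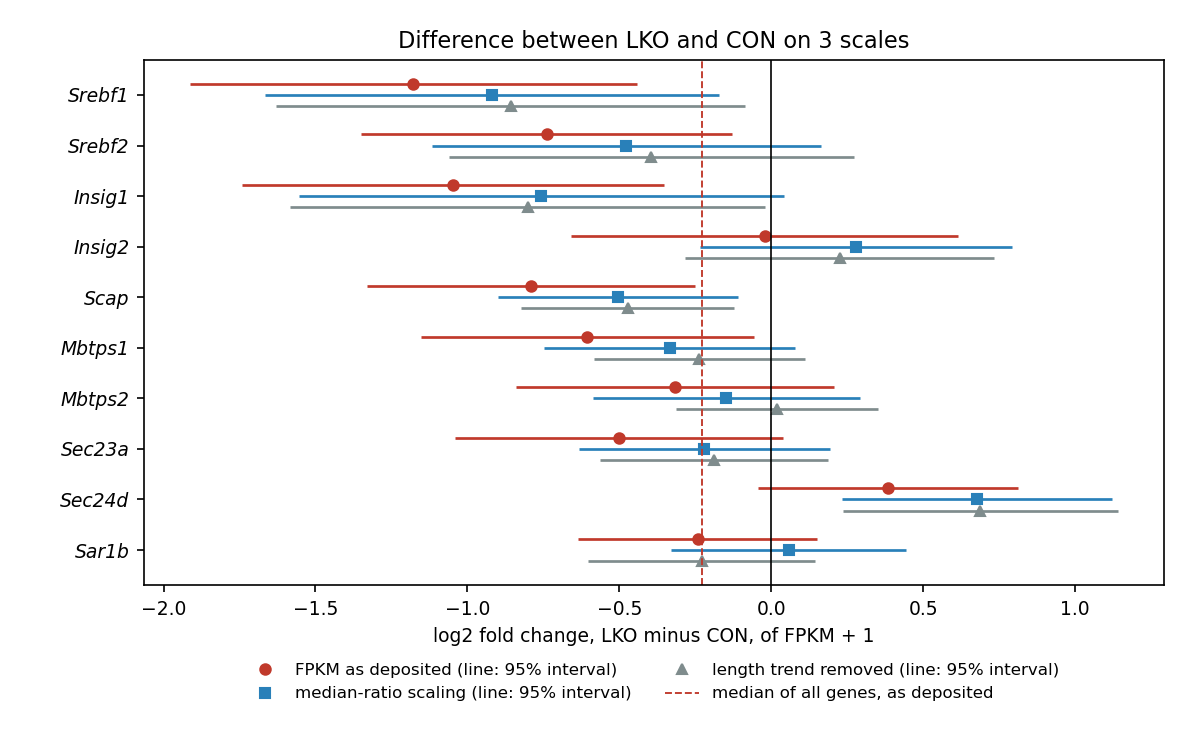
Log2 fold change of LKO minus CON for each of the 10 genes with its 95% interval, on the deposited FPKM scale (red circles), after median-ratio scaling (blue squares) and with the length trend of each library removed (grey triangles). The dashed line is the median of all tested genes on the deposited scale, -0.23. Srebf1, Insig1 and Scap lie farthest to the left and Sec24d to the right on each scale. Over the 3 scales Insig2 lies at -0.02 to 0.28, Mbtps2 at -0.32 to 0.02 and Sar1b at -0.24 to 0.06.

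The members showed different patterns over the 6 libraries, described here after their values were seen. Srebf1, Srebf2 and Insig1 were low in CON 3 as well as in LKO. As log2 deviations from the CON mean after median-ratio scaling, CON 3 was at -0.69, -0.57 and -0.66 for these 3 genes, and LKO 3 at -1.04, -0.52 and -0.96. LKO 1 was at -1.07, -0.68 and -1.04, and LKO 2 at -0.65, -0.23 and -0.26, above CON 3 for each gene. Scap, Mbtps1, Mbtps2 and Sec23a showed the other pattern, with CON 3 at 0.07, -0.05, 0.03 and 0.01. LKO 1 and LKO 2 were the lowest for these 4 genes, at -0.16 to -0.69, while LKO 3 was at -0.24, -0.02, 0.12 and 0.10. The libraries LKO 1 and LKO 2 are those with the negative length trend, whose part in this was not tested. CON 1 and CON 2 also had the adipocyte marker Cfd, complement factor D, at 12.49 and 18.68 FPKM, against 0.76 FPKM in CON 3 and 0.51 to 0.75 FPKM in LKO. The 5 adipocyte markers summed to 0.52 to 0.86 FPKM in LKO and 0.79 to 18.72 FPKM in CON. Of these the defining genes Adipoq and Plin1 stayed at or below 0.09 FPKM, and Lep and Retn were listed at 0 in all libraries. The 6 neutrophil markers summed to 1.93 to 5.45 FPKM in LKO and 5.70 to 10.95 FPKM in CON. Of these, Ly6g was listed at 0 in all libraries and Retnlg and Mpo in some. On the deposited scale this was the only marker list whose groups did not overlap. The marker sums were not median-ratio scaled, and the size factors of that scaling were 0.795 to 0.999 in LKO and 1.03 to 1.19 in CON. Dividing by them raises LKO sums against CON sums, so the separation is not claimed for that scale. Recruited macrophage markers leaned the other way, at 12.11 to 16.51 FPKM in LKO and 7.77 to 12.25 FPKM in CON. Sums of Kupffer cell, stellate, sinusoidal endothelial, cholangiocyte and lymphocyte markers also overlapped on the deposited scale. The major urinary proteins took 29.4%, 28.9% and 23.9% of the summed FPKM in LKO 1 to 3, against 6.22%, 15.6% and 22.1% in CON 1 to 3, and the part of these shares and markers in the patterns was not tested.

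**Figure D3:**
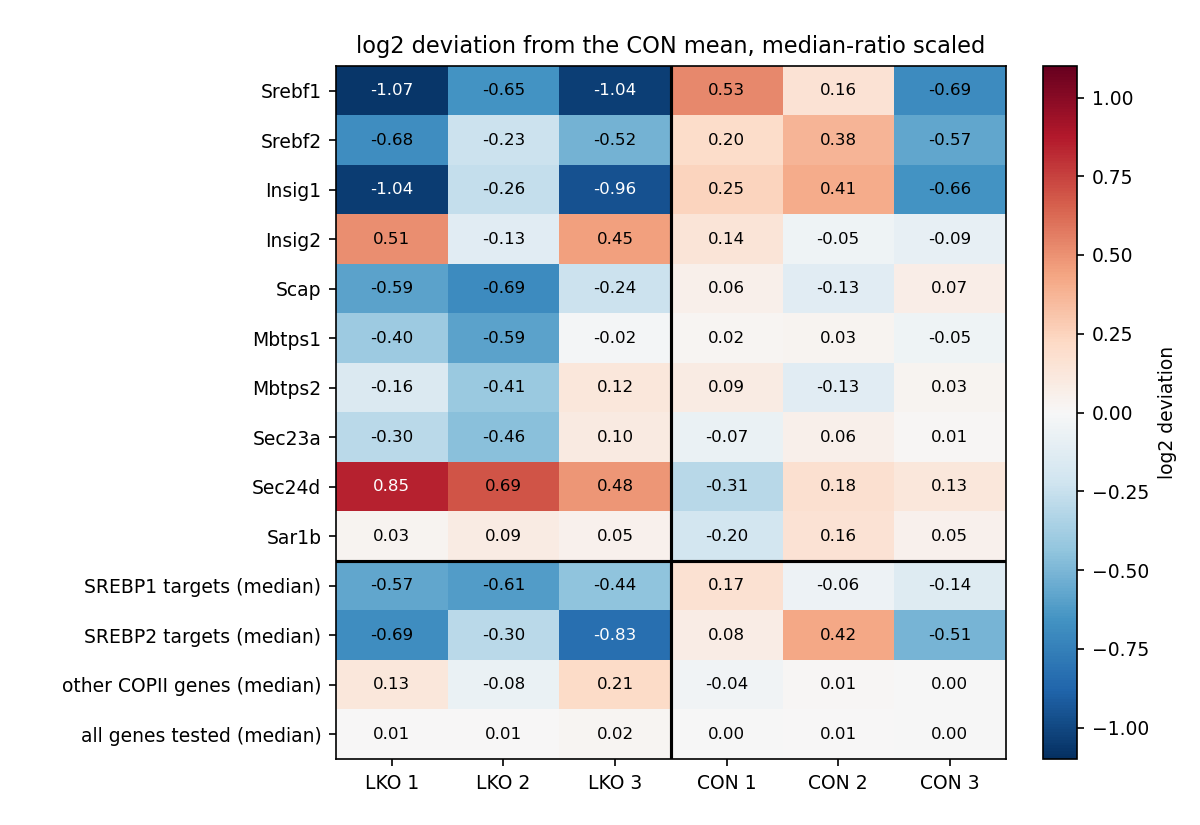
Heat map of log2 deviations from the CON mean after median-ratio scaling, for the 10 genes (upper rows) and the medians of 3 related lists and of all tested genes (lower rows) in each of the 6 libraries. Red is higher and blue is lower than the CON mean. CON 3 is blue for Srebf1, Srebf2, Insig1 and the SREBP2 targets (-0.51 to -0.69), and LKO 3 is near white for Mbtps1, Mbtps2 and Sec23a (-0.02 to 0.12).

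Leaving out the libraries that stood apart, alternatives of which those with a changed scale or 2 libraries left out were chosen after the data were seen, moved different members past the threshold. Without LKO 3, 3 members were called lower (limma), against 19% of all genes in that direction. They were Scap (log2 fold change -0.99, adjusted p = 0.022), Sec23a (-0.73, adjusted p = 0.03) and Mbtps1 (-0.83, adjusted p = 0.0271). Srebf1 (adjusted p = 0.0564) and Insig1 (adjusted p = 0.0701) did not pass. With the length trend also removed, 1 of the 10 passed lower, Scap (-0.58, adjusted p = 0.041 by limma), against 5.61% of all genes. With median-ratio scaling and without LKO 3, Scap (-0.64, adjusted p = 0.0279) and Mbtps1 (-0.49, adjusted p = 0.0406) passed lower, against 8.31% of genes, and Sec24d (0.77, adjusted p = 0.0407) passed higher, against 11.5% of genes. Without both CON 3 and LKO 3, Srebf1 (-1.52, adjusted p = 0.0254), Insig1 (-1.34, adjusted p = 0.0268), Srebf2 (-1.07, adjusted p = 0.0357) and Scap (-0.95, adjusted p = 0.0495) passed lower by limma, against 7.37% of all genes. With 2 libraries a group, that last fit rests on a spread from 2 residual degrees of freedom per gene and the variance trend. Without CON 3 alone, 0 members passed (limma), against 0.027% of genes lower and 0.018% higher. On the deposited scale, CON 3 was the CON library nearest to LKO for Srebf1, Srebf2 and Insig1. LKO 3 was the LKO library nearest to CON for Scap, Mbtps1 and Sec23a. Leaving out such a library widens the log2 fold change of those genes, so these calls are no independent support for a difference.

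Ratios of members within a library do not depend on how the library was scaled, but the length trend can enter where gene lengths differ. Scap has 4227 bases against 2697 for each INSIG gene, and Sar1b 1201 against 4109 for Sec23a and 3903 for Sec24d. The part of length in the ratios was not tested. By exact two-sided permutation tests, for which 3 against 3 libraries allow no p below 0.1, 5 ratios were compared. Groups did not overlap for 3 of the 5 ratios, where 23.4% of all pairs of tested genes had such a ratio. That share is for ratios of single genes, whereas the Scap ratio and the Sec23a plus Sec24d ratio each hold a sum. Insig1 over Insig2 was 0.0612, 0.168 and 0.068 in LKO 1 to 3, against 0.200, 0.257 and 0.124 in CON 1 to 3 (log2 difference -1.06, exact p = 0.2). LKO 2 lay above CON 3, so the groups overlapped. With no p below 0.1 possible, the test cannot decide whether the balance of the INSIG genes differed. The summed FPKM of both INSIG genes was 289.2, 175.49 and 300.53 in LKO 1 to 3 and 324.05, 258.49 and 243.42 in CON 1 to 3, with overlap.

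Srebf1 over Srebf2 was 0.770, 0.761 and 0.691 in LKO 1 to 3, against 1.36, 0.905 and 0.973 in CON 1 to 3, with no overlap (log2 difference -0.52, exact p = 0.1). Scap over the sum of the INSIG genes, the escort relative to its retention partners at the RNA level, was 0.0559, 0.0737 and 0.0753 in LKO 1 to 3, against 0.102, 0.0976 and 0.130 in CON 1 to 3. Each LKO library lay below each CON library (log2 difference -0.69, exact p = 0.1). Sec23a plus Sec24d over Sar1b was 0.339, 0.292 and 0.299 in LKO 1 to 3, against 0.239, 0.238 and 0.248 in CON 1 to 3 (log2 difference 0.35, exact p = 0.1). The CON libraries were close together and all below LKO. Sec24d was the larger part of this sum in every library, and its log2 fold change was opposite in sign to that of Sec23a. Mbtps1 over Mbtps2 was 6.48 to 8.04 in LKO and 6.88 to 8.90 in CON, with overlap (log2 difference -0.10, exact p = 0.5). Over the 5 ratios the adjusted p-values were 0.167 for the 3 ratios without overlap, 0.25 for Insig1 over Insig2 and 0.5 for Mbtps1 over Mbtps2.

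**Figure D4:**
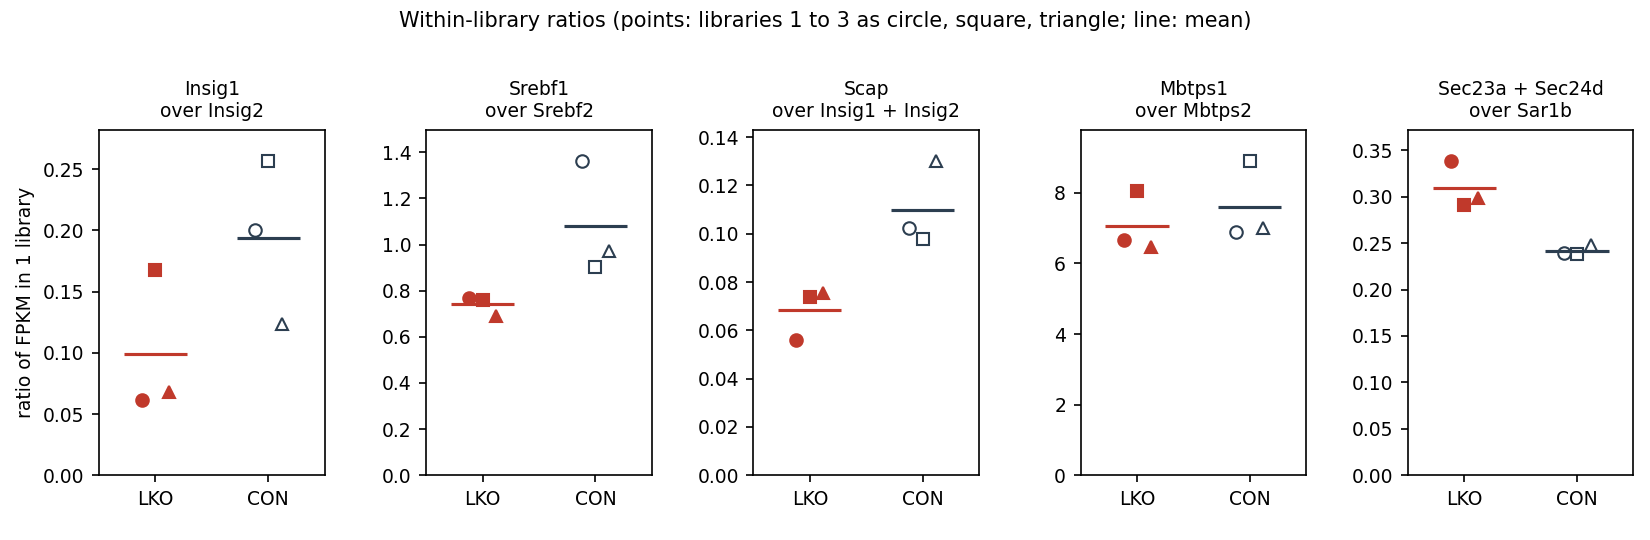
Ratio of FPKM values within each library for the 5 ratios tested, with LKO on the left and CON on the right of each panel and the mean of 3 libraries as a line. Srebf1 over Srebf2 and Scap over the INSIG genes are lower in all LKO libraries, Sec23a plus Sec24d over Sar1b is higher, and the other ratios overlap.

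Genes related to the pathway were described as lists, chosen with results of these data known and without a test of the list, and 0 of their genes passed over all genes in either direction (limma, adjusted p under 0.05). Of 22 tested SREBP2 targets of cholesterol synthesis and uptake, 22 had a negative log2 fold change, 21 of them below the median of all genes. The median of the list was -0.88 against -0.23 for all genes. An unadjusted p under 0.05 was reached by 12 (18.9% of all genes did in this direction). After median-ratio scaling the median was -0.63, with 21 negative and 5 at an unadjusted p under 0.05, where 7.91% of all genes were. On the deposited scale the median ran from -1.23 (without CON 3) to -0.58 (without CON 2) with 1 library left out, and it was -0.41 with median-ratio scaling and without LKO 3. The squalene synthase gene Fdft1 was at 12.28, 17.26 and 12.44 FPKM in LKO 1 to 3, against 49.82, 35.97 and 27.88 FPKM in CON 1 to 3 (log2 fold change -1.35, and -1.06 scaled). The sterol carrier gene Stard4 had a log2 fold change of -1.15, and of -0.89 scaled. CON 3 was low for this list as it was for Srebf2 and Insig1, with a scaled median deviation of -0.69, -0.30 and -0.83 in LKO 1 to 3, against 0.08, 0.42 and -0.51 in CON 1 to 3.

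Of 14 tested SREBP1 targets of fatty acid synthesis (16 listed), 14 were negative, 13 of them below the median of all genes. In this list 9 had an unadjusted p under 0.05, and the median was -0.93 (-0.65 after median-ratio scaling, with 13 negative and 8 at an unadjusted p under 0.05). Of all genes, 18.9% were lower at that p on the deposited scale and 7.91% on the other. With 1 library left out the median ran from -1.04 (without LKO 3) to -0.76 (without CON 1). The genes with the smallest p were Mid1ip1, an activator of acetyl-CoA carboxylase (-1.35, and -1.09 scaled), the acetyl-CoA synthetase gene Acss2 (-1.12, and -0.84 scaled) and the fatty acid synthase gene Fasn (-0.85, and -0.57 scaled). Scaled median deviations of this list were -0.57, -0.61 and -0.44 in LKO 1 to 3 and 0.17, -0.06 and -0.14 in CON 1 to 3, so that CON 3 did not share the level of LKO as it did for Srebf1 itself.

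The 13 other tested COPII and ER exit site genes (14 listed) had a median of -0.20, with 10 negative, and of 0.08 after median-ratio scaling, with 8 positive. Without LKO 2 the median was -0.011, without CON 1 -0.091 and without LKO 3 -0.33. At an unadjusted p under 0.05, 3 were lower (18.9% of all genes) and 0 higher (3.25%). These 3 were Mia2, a cargo receptor for large secretory loads such as lipoproteins (58.9 ± 21.6 FPKM in LKO and 106 ± 15.8 FPKM in CON, SD, n = 3 each, log2 fold change -0.88), its relative Mia3 (-0.49) and the coat gene Sec24a (-0.47). After scaling these 3 were at -0.59, -0.19 and -0.19. On that scale 1 gene of the list, Mia2, had an unadjusted p under 0.05 in the lower direction (7.91% of all genes) and 3 in the higher (10.3%). The 3, named after their values were seen, were the outer coat gene Sec31a (0.41), Preb, which activates the Sar1 GTPases (0.45), and the exit site gene Tfg (0.34). The scaled median deviation of the list was 0.13, -0.08 and 0.21 in LKO 1 to 3, where Sec24d was at 0.85, 0.69 and 0.48.

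Genes of INSIG and SREBP complex turnover and retention (15 tested of 17 listed) had a median of -0.32. Of these, 12 were negative, 9 of them below the median of all genes, and 1 was lower at an unadjusted p under 0.05 (18.9% of all genes). After scaling the median was -0.05, with 8 negative and 7 positive. Single libraries moved the median on the deposited scale, which was -0.082 without LKO 2, -0.21 without CON 3 and -0.63 without LKO 3. Among those with the smallest p were Erlin2, which binds the SCAP and INSIG complex (-0.70, and -0.46 scaled), and the ubiquitin-binding gene Faf2 (-0.52, and -0.24 scaled). Regulators of SREBP transcription and of nuclear SREBP (17 tested) were at a median of -0.25 with 0 at an unadjusted p under 0.05 (18.9% of all genes were lower at that p), and at 0.01 after scaling. They include Rxra, the partner of the LXR receptors at the Srebf1 promoter, which was at 55.2, 52.5 and 140 FPKM in LKO 1 to 3, with LKO 3 inside the CON range of 119 to 143 (log2 fold change -0.82, and -0.52 scaled). Sp1 (-0.55, and -0.33 scaled) and Nfyc (-0.37, and -0.099 scaled) were the others with the smallest p. Other substrates of the site-1 and site-2 proteases (6 tested of 7 listed) were at a median of -0.52, with 5 negative and 2 lower at an unadjusted p under 0.05 (18.9% of all genes), and at -0.26 after scaling. Without LKO 2 the median was -0.27. The stress sensor gene Atf6 was at 4.22, 3.29 and 8.70 FPKM in LKO 1 to 3 and 9.15, 8.77 and 9.99 FPKM in CON 1 to 3, with LKO 3 near CON as for Mbtps1 (log2 fold change -0.78, and -0.52 scaled). Gnptab had a log2 fold change of -0.62 (-0.46 scaled) and Atf6b of -0.57 (-0.33 scaled).

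**Figure D5:**
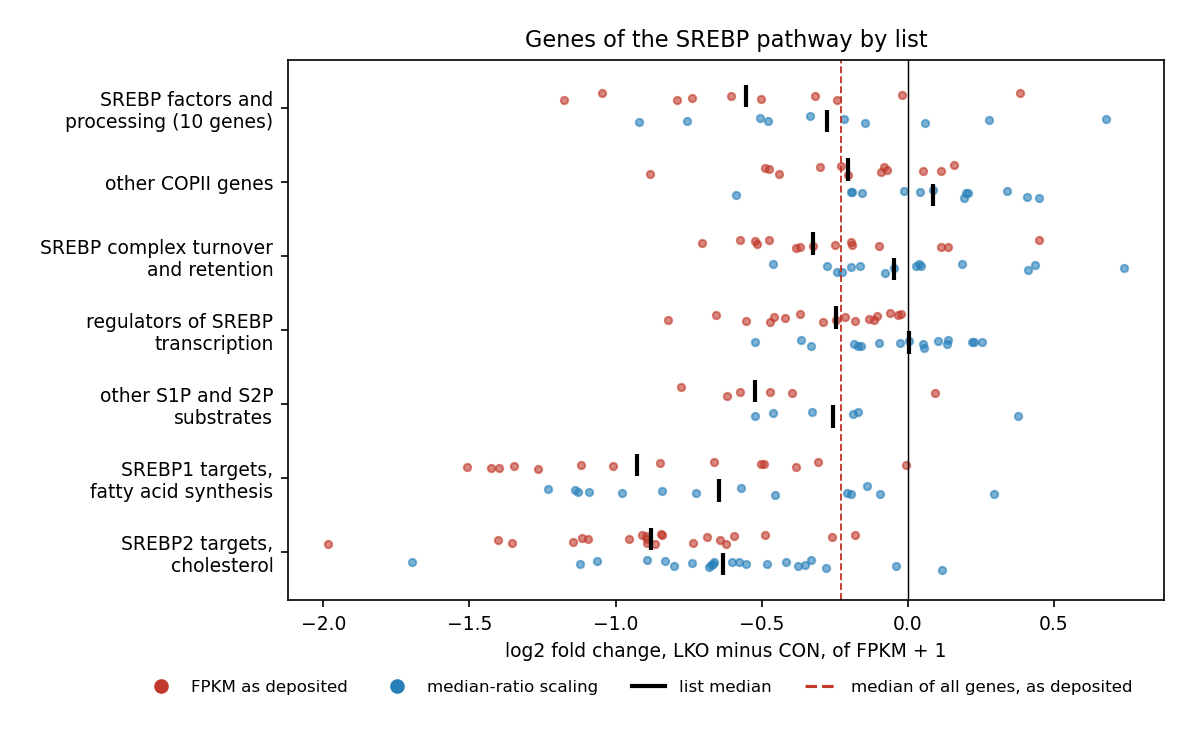
Log2 fold change of LKO minus CON for each tested gene of the pathway lists, on the deposited scale (red) and after median-ratio scaling (blue), with list medians as black bars and the median of all genes on the deposited scale as a dashed line at -0.23. The SREBP1 and SREBP2 targets lie to the left on both scales (medians -0.93 and -0.88, and -0.65 and -0.63), and the other lists lie nearer to the median of all genes.

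As a description of likeness, Pearson's r of log2(FPKM + 1) over the 6 libraries was taken between Srebf1, Insig1 and Insig2 and 6043 other genes with a mean of at least 5 FPKM. The libraries of a group share a genotype, and many genes reach a high r with 6 points. For Srebf1, 100 genes reached 0.95, and the nearest were the exporter gene Slc47a1, the paraoxonase gene Pon1 and the prolactin receptor gene Prlr (r of 0.997 each). For Insig1, 31 genes did, and the nearest were the glutathione transferase gene Gsta3 (0.985), Srebf2 (0.980) and Prlr (0.978). Srebf1 had an r of 0.961 with Srebf2 and of 0.962 with Insig1, and of -0.91 with Sec24d. For Insig2, 15 genes reached 0.95, and the nearest were the histone gene H3f3b (0.988), the phosphatase gene Pgp (0.986) and the Golgi stacking gene Gorasp2 (0.985). Its r with Insig1 was -0.13.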

How the data were processed

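Mouse liver RNA in 3 LKO and 3 CON libraries was measured as FPKM per gene, deposited by the authors with 2 decimals and with a gene length in bases, per the file headers. Per the submitters' processing notes HISAT2 and StringTie were used with build mm9. Their versions, the annotation release and the strandedness of counting are not given there. FPKM times length did not fall on whole reads (17.7% to 30.5% of low values of short genes lay within 0.1 steps of a whole number), so no count model was used and depth is unknown. Genes whose FPKM averaged 1 or more were taken to log2(FPKM + 1) and fitted with limma 3.58.1 (R 4.3.3, eBayes with trend, group as the only term, two-sided). For median-ratio scaling, a library was divided by the median over genes of its ratio to the geometric mean of all 6. A fold change on the log2(FPKM + 1) scale understates that of low genes. Ratios were tested by exact permutation (scipy 1.17.1). The fit was checked on simulated data, drawn independently for each gene. They held no scale difference or length trend between libraries, so the check does not cover these. Promoters came from RefSeq, build GRCm38.p6, and no coordinate was converted.

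The members and lists were chosen with earlier results of these data known. The text names every member and Cd36 in full, up to 3 genes of each list by the smallest unadjusted p (some of these are not reported here), 3 further COPII genes chosen after their values were seen, and the 3 genes most like Srebf1, Insig1 and Insig2. Alternatives changed the pseudocount (0.1), the filter (none, 5), the scaling, the length trend, the variance model, weights, the block and the libraries used.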

Additional observations from a re-analysis of the deposited data

How the results depend on the processing

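No member passed over all genes in the limma fit, and 0 passed lower in 16 and higher in 19 of 21 alternatives. Leaving out 1 library in turn gave 0 to 3 members lower and 0 higher, 0 to 2115 genes lower and 0 to 511 higher, and 0 to 29 pathway genes lower. Array weights, whose fit stopped before its convergence tolerance, gave 4176 genes lower and 1688 higher, 7 members lower and 1 higher (Sec24d), 46 pathway genes lower and 4 higher, and -2.86 for Cd36. Median-ratio scaling without LKO 3 gave 921 lower and 1279 higher, 2 and 1 members, 14 and 1 pathway genes, and -2.65 for Cd36. Length trend removal without LKO 3 gave 623 lower and 710 higher, 1 member, 9 pathway genes, and -2.61 for Cd36. Without CON 3 and LKO 3 the counts were 818 and 308, 4 members, 20 pathway genes, and -3.31 for Cd36, which ranged from -2.98 (without LKO 3) to -2.03 (without CON 1) with 1 library left out. A single gene passed lower in the fit reported. The count was 0 with a pseudocount of 0.1, no filter, a filter at 5, the length trend removed, or median-ratio scaling without CON 3. It was 2 with libraries rescaled to the same sum.

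Srebf1, Srebf2, Insig1, Scap, Mbtps1 and Sec23a were negative and Sec24d positive in all 21 alternatives. Srebf1 ranged from -1.52 to -0.76, Insig1 from -1.37 to -0.65, Scap from -1.08 to -0.47 and Sec24d from 0.08 to 0.80. Insig2 turned positive under median-ratio scaling (0.28), quantile normalization (0.093), length trend removal (0.23), array weights (0.29), without LKO 2 (0.27) and without CON 1 (0.10). It was also positive under median-ratio scaling without LKO 3 (0.19) or CON 3 (0.23) and length trend removal without LKO 3 (0.12). Leaving out libraries gave Insig2 values from -0.22 (without CON 3 and LKO 3) to 0.27. Mbtps2 was at 0.019 with the length trend removed. Sar1b was positive under median-ratio scaling (0.057), also without LKO 3 (0.061) or CON 3 (0.082). Mbtps1 over Mbtps2 ranged from -0.20 to 0.019 without 1 library, the highest without CON 2. The cause of these turns was not tested.

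No label used here says whether the library numbers pair the samples. Deviations of same-numbered LKO and CON libraries correlated at -0.05, 0.17 and 0.07. Those of differently numbered ones correlated at -0.16 to 0.06, and such low values cannot decide whether samples were paired. With the replicate block 0 genes passed lower, no member passed, and Srebf1 was at -1.18 (adjusted p = 0.19). The unknown depth limits what can be said of Mbtps2, at about 1 FPKM.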
